A study of Mus musculus with 8 samples.

Results

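In alveolar macrophages (AMs), the macrophages that live in the air spaces of the lung, 6899 of 51554 open chromatin regions away from promoters lay packed into 508 dense clusters, and these clusters are described here in animals with and without retinoid X receptors (RXRs) in AMs. Open regions were the peaks of 8 ATAC-seq libraries, merged where peaks shared a base and kept when at least 2 libraries had a peak and the highest summit lay over 1 kb from any transcription start site (TSS) of the GENCODE M21 annotation on the 19 autosomes. Regions whose gaps were 12.5 kb or less were chained, and a chain of 10 or more regions was called a cluster. The clusters were 2.27% of 22366 chains and held 13.4% of the distal regions, or 9.49% of all 72711 regions with a peak in 2 libraries. Members were thus chosen by measured values, namely where peaks were called in both genotypes together and which peak had the highest summit, so their density is a description without a test. Just inside the limit were 136 chains of 10 regions and just outside it 154 chains of 9 regions, which held 1360 and 1386 regions. A cluster held 12 regions at the median and 47 at most, and 157 clusters held 15 or more. It spanned 53.7 kb at the median, between 20.4 and 216 kb, and all clusters together covered 29.9 Mb, of which 3.08 Mb lay in the regions themselves.

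Open chromatin away from promoters often marks enhancers, stretches of DNA where transcription factors bind and from which they raise the transcription of genes nearby. Genes that define a cell type are often surrounded by many enhancers close together, and in macrophages such stretches are opened by lineage factors such as PU.1 with C/EBP, AP-1 and RUNX factors. RXRs are nuclear receptors that bind DNA in pairs, often with another nuclear receptor, at repeats of the letters AGGTCA. With PPARγ, a receptor needed for AM maturation, an RXR binds such repeats spaced by a single base (DR1).

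Each library came from AMs washed from the lungs of adult mice. The paper's main text describes the ATAC-seq cells as sorted mature AMs, while legends of a supplementary figure name the KO cells immature AMs. Both genotypes carried floxed alleles of the genes for RXRα and RXRβ (Rxrab fl/fl): 4 KO libraries were from CD11cCre+ animals and 4 WT libraries from CD11cCre- animals, so the floxed alleles were shared and the Cre differed. The Cre is driven by the promoter of Itgax, the gene for CD11c, and acts in all cells that use this promoter, not in AMs alone. Replicates bear the names 1_2, 1_3, 2 and 3 in KO and 1_2, 1_3, 3 and 4 in WT, and values are listed in this order throughout. Nothing in the labels says whether libraries 1_2 and 1_3 came from separate animals, so the p-values measure the spread between libraries, which may in part be technical.

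The lists held 60363 to 72484 peaks per library, and the median number of sequence tags at the summit of a region open in all 8 libraries was between 57 and 91, highest in WT 1_3. Of 7 AM marker genes, 6 had a promoter peak in all 8 libraries and Chil3 had none. Of 21 markers of other cell types, 11 had a promoter peak, in all 8 libraries alike. Their summed summit tags were 516 to 757 in KO and 572 to 785 in WT libraries. Defining markers of T, NK and alveolar epithelial cells and of neutrophils (Cd3e, Ncr1, Sftpc, Ly6g) had none. Other markers of neutrophils, T cells and epithelium had peaks, from 125 to 220 tags at S100a8, 25 to 40 at Csf3r, 25 to 42 at Lck and 11 to 32 at Epcam. Peaks were present at 2 of 2 endothelial, 2 of 2 fibroblast, 2 of 3 dendritic cell and 1 of 3 B cell markers. Summit tags were 112 to 178 at Pecam1 (endothelium), 55 to 101 at Pdgfra (fibroblasts) and 84 to 116 at Zbtb46 (dendritic cells). The part of other cell types in the results was not tested. The promoter of Xist, the RNA that silences an X chromosome in female cells, had a peak in 4 of 4 KO libraries (22, 28, 42 and 32 tags) and in 0 of 4 WT libraries. The labels give no sex, and genotype and what this peak reflects cannot be told apart in any comparison that follows; all clusters are autosomal. At the Itgax promoter, which the Cre transgene also carries, KO libraries had 514, 502, 379 and 448 tags and WT libraries 185, 218, 239 and 152. An Rxra cluster is among the members, with 13 of 15 summits in the gene, but distal peaks are no check of the deletion.

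Sequences of single regions in the clusters that differed most between genotypes are shown first, since the results turn on them. Each is the 201 bases around a summit, read from the plus strand of the mouse genome build mm10 (GRCm38), with matches to a motif in capitals. The motifs searched on both strands were TGANTCA (AP-1), GAGGAAGT (PU.1), TGTGGTT (RUNX), CACGTG (E-box), TTGCGCAA, TTGCGTAA, TTACGCAA or TTACGTAA (C/EBP) and a repeat of AGGTCA spaced by 1 base with up to 2 mismatches (DR1); a match is a description of letters and not evidence of binding. The first 3 are the regions with most tags in the clusters beside Krt78, Marco and Tpra1. In the first, 2 AP-1 matches lie in sequence of 79.6% GC.
Krt78 strongest region, chr15:101977441-101977641: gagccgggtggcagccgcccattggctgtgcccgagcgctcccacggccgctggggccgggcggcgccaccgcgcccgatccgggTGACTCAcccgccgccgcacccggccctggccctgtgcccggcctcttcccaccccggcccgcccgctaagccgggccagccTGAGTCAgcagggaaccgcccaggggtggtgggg
Marco strongest region, chr1:120532636-120532836: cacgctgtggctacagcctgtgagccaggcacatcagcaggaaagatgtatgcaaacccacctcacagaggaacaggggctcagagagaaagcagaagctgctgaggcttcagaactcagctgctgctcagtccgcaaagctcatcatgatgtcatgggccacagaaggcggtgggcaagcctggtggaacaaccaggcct
Tpra1 strongest region, chr6:88971836-88972036: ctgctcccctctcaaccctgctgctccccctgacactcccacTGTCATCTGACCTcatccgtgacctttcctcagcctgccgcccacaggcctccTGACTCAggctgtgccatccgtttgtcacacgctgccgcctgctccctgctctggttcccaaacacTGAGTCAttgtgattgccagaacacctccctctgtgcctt
The other sequences are the regions with the largest difference in their clusters, chosen after their values were seen. Those at Krt78, Hivep2, Nav2 and Marco had fewer tags in KO libraries, and those at Pgs1 and Dusp22 had more. Both Nav2 regions hold a DR1 match, one of them 4 bases after an AP-1 match, while none of the 6 motifs was found in the windows of Krt78, Hivep2 and Marco. The Pgs1 window holds a PU.1 match and the Dusp22 window an AP-1 match.
Krt78 most changed region, chr15:101945516-101945716: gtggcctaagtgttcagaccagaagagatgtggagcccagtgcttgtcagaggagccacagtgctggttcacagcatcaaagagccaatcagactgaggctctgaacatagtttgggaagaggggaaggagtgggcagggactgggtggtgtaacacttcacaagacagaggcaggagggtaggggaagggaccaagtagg
Hivep2 most changed region, chr10:14034788-14034988: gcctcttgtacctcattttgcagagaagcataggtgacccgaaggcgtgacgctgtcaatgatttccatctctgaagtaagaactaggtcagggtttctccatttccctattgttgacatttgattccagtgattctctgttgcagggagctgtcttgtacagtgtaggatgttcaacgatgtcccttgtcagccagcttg
Nav2 most changed region, chr7:49055906-49056106: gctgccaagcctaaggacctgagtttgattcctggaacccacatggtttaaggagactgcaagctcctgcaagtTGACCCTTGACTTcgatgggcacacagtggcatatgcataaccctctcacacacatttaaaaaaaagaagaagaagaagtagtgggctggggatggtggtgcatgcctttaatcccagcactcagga
Nav2 most changed region, chr7:48975599-48975799: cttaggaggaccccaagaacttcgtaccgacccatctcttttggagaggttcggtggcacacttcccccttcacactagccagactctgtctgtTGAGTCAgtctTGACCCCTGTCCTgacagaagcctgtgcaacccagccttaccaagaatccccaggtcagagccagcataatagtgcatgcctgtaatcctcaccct
Marco most changed region, chr1:120522551-120522751: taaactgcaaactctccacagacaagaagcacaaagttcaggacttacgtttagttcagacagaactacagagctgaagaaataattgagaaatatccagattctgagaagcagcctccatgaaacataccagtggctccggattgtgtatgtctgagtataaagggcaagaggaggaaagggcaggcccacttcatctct
Pgs1 most changed region, chr11:117939784-117939984: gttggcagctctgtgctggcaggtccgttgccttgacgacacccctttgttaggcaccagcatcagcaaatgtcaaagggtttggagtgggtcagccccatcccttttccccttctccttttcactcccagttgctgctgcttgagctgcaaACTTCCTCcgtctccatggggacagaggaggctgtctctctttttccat
Dusp22 most changed region, chr13:30642161-30642361: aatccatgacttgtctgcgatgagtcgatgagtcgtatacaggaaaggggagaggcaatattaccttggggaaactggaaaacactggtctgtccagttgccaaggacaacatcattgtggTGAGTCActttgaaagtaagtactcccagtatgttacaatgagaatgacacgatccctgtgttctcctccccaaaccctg

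The regions of clusters were somewhat stronger and more often intronic than the other 44655 distal regions. Their median width was 408 against 390 bp, their median GC content 49.8% against 48.8%, and their median strength percentile within a library's list 46.7 against 33.1. An intron held the summit of 62.0% of members and 53.0% of other distal regions, an exon 3.22% and 5.50%, and 34.8% and 41.5% were intergenic. A member lay 11.2 kb from the nearest TSS at the median, other distal regions 9.34 kb. A protein-coding gene overlapped 419 clusters, exactly 1 gene in 327 of them, and 505 distinct coding genes were covered in all. In 278 clusters (54.7%) most summits lay within a single coding gene, and in 172 every summit did; 160 of the 508 clusters overlapped a long noncoding gene, with or without a coding one. Chromosome 2 held most clusters (51) and chromosome 1 47. Because strength and annotation bear on where peaks are called close together, these figures are given without a test.

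Letters of the AP-1 motif were found within the 201 bases of 15.5% of member regions, 13.6% of other distal regions and 11.9% of all regions. The PU.1 motif was present in 11.2%, 12.8% and 10.7%, the RUNX motif in 10.6%, 10.6% and 8.98%, and the DR1 motif in 5.51%, 4.65% and 4.14%, in the same order. The E-box stood at 5.03%, 4.73% and 5.35% and the C/EBP motif at 0.681%, 0.705% and 0.645%.

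Whether the clusters as a whole differed between genotypes was looked at with 4 measures per library. A peak was called at 84.8%, 88.7%, 84.9% and 85.2% of member regions in KO and at 87.9%, 93.7%, 88.9% and 84.9% in WT libraries. The means were 85.9% ± 1.87 (SD, n = 4) and 88.8% ± 3.65 (SD, n = 4), the groups overlapped, and the library with the highest share, WT 1_3, was also the one with most peaks. Members were 14.4% ± 0.292 of the distal regions with a peak in KO and 14.1% ± 0.375 in WT libraries (SD, n = 4 each), and the median strength percentile of member peaks was 52.9 ± 0.821 and 54.1 ± 1.52. A permutation test was run on these 3 measures too. Since peaks of these same lists chose the members, its p-values are not used and the 3 measures are given as a description. Of the summit tags at distal regions open in all 8 libraries, members took 20.2%, 20.1%, 19.9% and 19.6% in KO and 19.8%, 19.6%, 20.1% and 20.4% in WT libraries. KO minus WT was -0.0229 percentage points, less than the SD of either group (exact permutation test over 70 labelings, two-sided, p = 0.886, adjusted p = 0.886 over 4 measures; the smallest p this design allows is 0.0286).

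**Figure D1:**
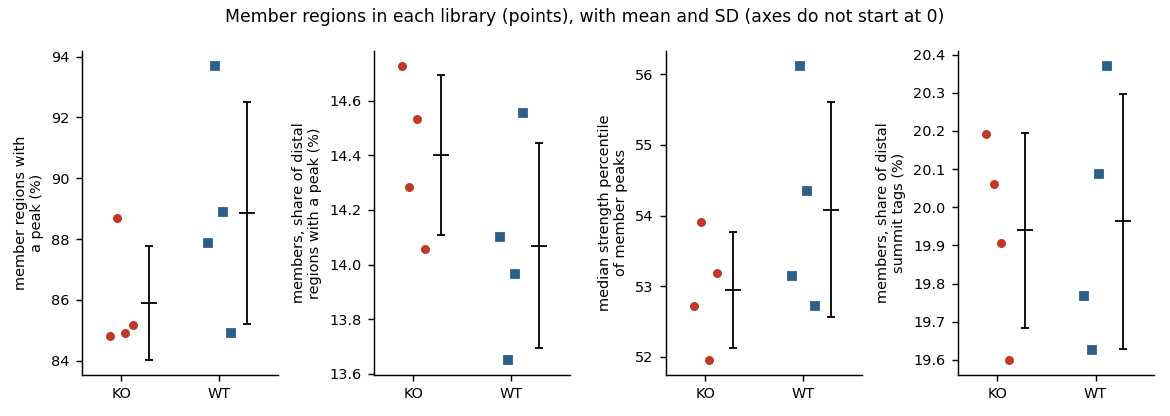
Each panel plots 1 of 4 measures of the member regions (vertical axis, in percent or percentile) for the 4 KO and 4 WT libraries as points, with the mean and SD of each genotype. KO and WT points overlap in every panel; the share of summit tags lies between 19.6% and 20.4% in all 8 libraries.

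Single regions were then compared. Tags at a summit were whole numbers recovered from the peak caller's output, and the difference of log2 tags between KO and WT, centred on the library median, was tested by limma over all 47499 regions with a peak in all 8 libraries. Of the 6899 members, 4866 had such peaks and were tested; of the other 2033, 50 had a peak in all 4 WT libraries and no KO library, 13 the reverse, and 1970 showed other patterns. In KO libraries 389 members (7.99%) were lower and 238 (4.89%) higher at an adjusted p under 0.05, while over all regions tested 7.03% were lower and 5.81% higher. Among the other distal regions the shares were 9.14% and 5.43% of 26304. The share of members called lower or higher was thus close to the background, and the share of lower among those called was 62.0% in members and 62.7% in other distal regions. With libraries scaled to their total tags, 466 members were lower and 183 higher (71.8% lower). A fit with the replicate number as a block, which left out KO 2 and WT 4, gave 363 lower and 320 higher (53.1% lower). With GC content added the block gave 332 and 332 (50.0% lower). Leaving out WT 4 alone gave 348 and 279 (55.5% lower). The log2 differences of members were narrower, with an SD of 0.27 against 0.33 in other distal regions, and 90% of members lay between -0.46 and 0.39. The median SE was 0.13 in members and 0.15 in other distal regions. Regions in chains of 9, just outside the limit, were lower in 6.99% and higher in 4.87% of 944 tested, and those in chains of 10 in 8.76% and 5.60% of 947. In bulk libraries, fewer cells with an open region and less opening per cell cannot be told apart.

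The WT-only and KO-only members were 0.725% and 0.188% of all members, against 0.831% and 0.258% of the background. They lay in 45 and 13 clusters, and no cluster had more than 3. Tns1, which encodes an actin-binding protein of focal adhesions, had 3 WT-only regions, the strongest with 32, 62, 41 and 28 tags. In Dapk1, the gene of a kinase linked to cell death, 1 of 2 WT-only regions had 65, 94, 60 and 67 tags and holds an AP-1 match. The cluster around Notch2, a receptor of cell fate decisions, had a WT-only region with 63, 85, 68 and 68 tags. One with 82, 96, 83 and 65 tags stood at the end of the Kcnj15 cluster. The Fos cluster had a WT-only region with 94, 104, 86 and 75 tags, the deepest of those in the named clusters. The Pgs1 cluster had the only KO-only region of the named clusters, with 13, 13, 14 and 9 tags. These regions differ by the way they were picked and carry no test.

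To ask whether the regions of a cluster changed together, the centred log2 tags were averaged over the tested regions of each chain in each library, and the mean was tested by limma over all 15279 chains with a tested region. In KO libraries 25 of 508 clusters (4.92%) were lower and 11 (2.17%) higher at an adjusted p under 0.05, against 10.3% and 5.76% of all chains. In all 36 clusters KO and WT libraries did not overlap, which follows in part from choosing them by the difference of these same library means. Among all 508 clusters, called or not, every KO library lay below every WT library in 65 and above in 53. The call count fell to 22, 21 and 19 without KO 2, KO 3 and WT 3. With every member region in the means, a missing peak being set to the smallest summit tags called in that library, 16 clusters were lower and 11 higher; 15 of the 36 clusters kept their call and 35 their sign. When libraries were scaled to their total tags in place of the median, 31 clusters were lower and 7 higher, so the share of lower among those called went from 69.4% to 81.6%. A fit with the replicate number as a block, which left out KO 2 and WT 4, called 19 clusters (57.9% of them lower). With GC content added the block called 21 (47.6% lower). The fit of chain means assumes 1 spread for short and long chains of like mean level, although longer chains average over more regions. The SD of the log2 difference was 0.37 for single regions, 0.32 for chains of 2 to 4, 0.23 for 5 to 9 and 0.15 for clusters. In a fit added after the data were seen, which weighted each chain by its number of tested regions, 86 clusters (16.9%) were lower and 69 (13.6%) higher, against 11.7% and 7.26% of all chains. This weighting treats the regions of a chain as independent, yet residuals within genotypes of neighbouring members had an r of 0.116. For clusters the median SE was 0.051 in the weighted fit and 0.085 in the unweighted one, and weighted p-values of long chains may be too small. All 36 clusters were called in the same direction by both fits. The share of chains called fell with length in the first fit, from 18.2% of single regions to 7.09% of clusters, and rose in the weighted one, from 16.1% to 30.5%. Whether clusters were called more or less often than short chains thus turned with the weighting, and only the unweighted calls are used below unless the weighted fit is named.

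**Figure D2:**
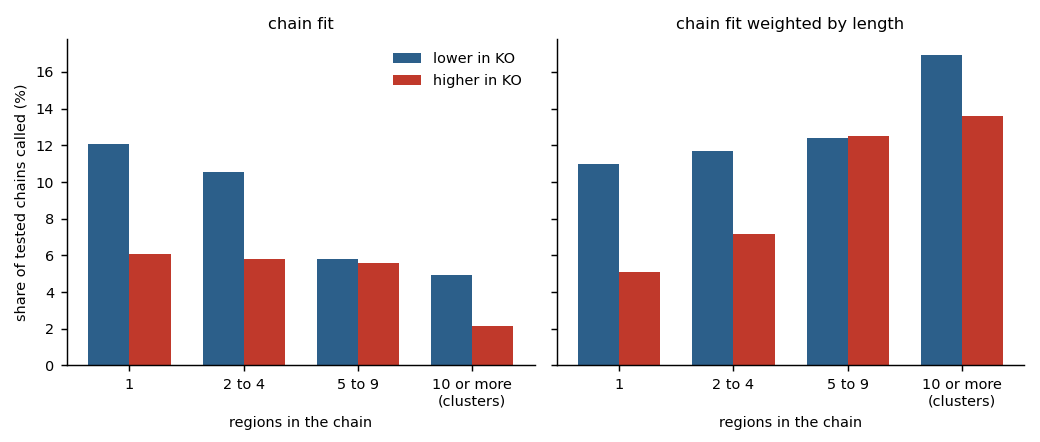
The share of chains called lower or higher in KO (vertical axis, percent) is plotted by the number of regions in the chain (horizontal axis) for the unweighted and the weighted limma fit. The share falls from 18.2% to 7.09% in the unweighted fit and rises from 16.1% to 30.5% in the weighted one.

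In the 25 clusters called lower, 203 of 235 tested regions (86.4%) lay below 0, 91 were called lower singly and 0 higher. In the 11 called higher, 68 of 69 tested regions (98.6%) lay above 0, 32 were called higher and 0 lower. These signs follow in part from choosing the clusters by their mean. Every tested region had the same sign in 7 of the lower and 10 of the higher clusters. The cluster differences were modest, from -0.54 to 0.65 on the log2 scale.

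**Figure D3:**
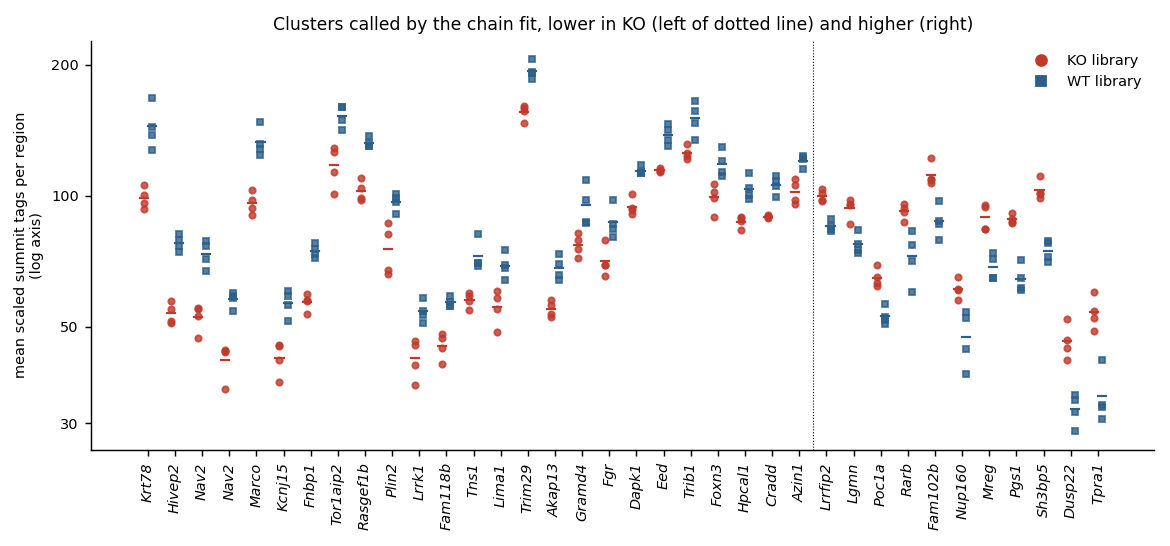
The mean scaled summit tags of the tested regions (vertical log axis) are plotted for each of the 8 libraries in the 36 clusters called by the unweighted fit (horizontal axis), KO and WT in separate colours. In every cluster the 4 KO points lie on one side of the 4 WT points, below them in 25 clusters and above them in 11. Of all 508 clusters, called or not, 65 had KO wholly below WT and 53 wholly above.

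The cluster with the lowest KO mean relative to WT lay beside Krt78, a keratin gene, and 4.58 kb from Krt79, a keratin gene on the list of AM identity genes. This cluster (chr15:101944900-101984668) had 12 regions, of which 10 were tested. Its mean was 106, 100.2, 93.3 and 96.0 scaled tags (tags brought to a common library median) in KO and 138, 127, 144 and 168 in WT libraries. Every KO library was below every WT library, with a log2 difference of -0.54 ± 0.086 (SE; 0.688-fold, limma adjusted p = 0.00055). Of the 10 regions 7 were called lower and 3 lay above 0, so the difference did not extend over the whole cluster. The region 0.716 kb from the cluster's start, printed above, had 38.8, 29.3, 30.5 and 33.3 scaled tags in KO and 79.3, 69.2, 96.1 and 95.9 in WT libraries, a log2 difference of -1.35 ± 0.15 (adjusted p = 5.71e-09). The strongest region, with the 2 AP-1 matches, had 234, 249.5, 239 and 246 in KO and 209.9, 226, 235 and 248 in WT libraries, and these groups overlapped (log2 difference 0.08 ± 0.082, adjusted p = 0.6).

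Marco encodes a scavenger receptor with which AMs take up particles and bacteria. Its cluster (chr1:120498035-120550489) had 14 regions, 7 of them tested. The cluster mean was 97.8, 103, 93.7 and 90.4 scaled tags in KO and 128, 124, 131 and 147 in WT libraries. All KO libraries were lower, by -0.46 ± 0.078 on the log2 scale (0.727-fold, adjusted p = 0.000874). All 7 tested regions lay below 0 and 5 were called lower. Over all 14 regions, with missing peaks filled, the difference was -0.26 and was not called (adjusted p = 0.148). The region 26.3 kb into the cluster, with an AP-1 match, had 170.2, 153, 147 and 164 tags in KO and 259, 244, 305 and 301 in WT libraries (-0.80 ± 0.089, adjusted p = 3.99e-09). Its neighbour 24.6 kb into the cluster, printed above, was lower by -1.04 ± 0.15 (adjusted p = 7.66e-07), and the strongest region by -0.34 ± 0.087 (adjusted p = 0.00557). A further region at the far end was WT-only, with 12, 13, 10 and 14 tags.

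Hivep2 encodes a large zinc finger transcription factor. Its intronic cluster (chr10:14017759-14055970; 10 regions, 7 tested) had a mean of 51.5, 51.0, 54.9 and 57.2 scaled tags in KO and 76.7, 79.2, 81.5 and 74.2 in WT libraries. The groups were apart, at -0.54 ± 0.087 (0.688-fold, adjusted p = 0.000573), with all 7 regions below 0 and 4 called lower. With missing peaks filled, the difference was -0.32 (adjusted p = 0.106). The most changed region had 29.9, 21.2, 29.4 and 29.7 tags in KO and 69.6, 55.0, 97.0 and 66.6 in WT libraries (-1.35 ± 0.17, adjusted p = 8.53e-08). At the other end, the strongest region had 175, 188, 166 and 206 in KO and 211, 202, 189 and 186 in WT libraries, with overlapping groups and a difference of -0.10 ± 0.09 (adjusted p = 0.496).

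Nav2, a gene of a protein that guides the growth of cell extensions, held 2 clusters within its introns and both were lower. The longer one (chr7:48961961-49007539; 11 regions, 8 tested) had means of 36.01, 43.6, 44.1 and 44.0 in KO and 54.2, 58.9, 58.2 and 59.6 scaled tags in WT libraries, a difference of -0.47 ± 0.11 (adjusted p = 0.0079). The other (chr7:49046347-49079170; 10 regions, 6 tested) had 54.8, 55.3, 47.2 and 53.0 in KO and 71.7, 76.5, 78.7 and 67.1 in WT libraries (-0.48 ± 0.095, adjusted p = 0.00266). KO and WT libraries were apart in both. In each cluster 3 regions were called lower, among them the printed region with the DR1 match, which had a difference of -0.97 ± 0.17 (adjusted p = 4.37e-05) in the longer and -1.04 ± 0.15 (adjusted p = 1.92e-06) in the shorter cluster. The 2 clusters lie in 1 gene and are not independent examples.

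Rasgef1b, an exchange factor for small GTPases that macrophages induce on microbial contact, had an intronic cluster (chr5:99326971-99383153) of 18 regions with 11 tested. The mean was 109, 104, 98.7 and 97.4 in KO and 129.7, 129.9, 137 and 132 scaled tags in WT libraries. All KO libraries were lower (-0.37 ± 0.07, 0.774-fold, adjusted p = 0.00204), and 5 regions were called lower. With missing peaks filled it was -0.44 with an adjusted p of 0.0564. The region 2.24 kb from the cluster's start, with RUNX and DR1 matches, had 77.6, 80.8, 51.9 and 59.4 in KO and 118, 131, 129.9 and 131 in WT libraries (-0.94 ± 0.12, adjusted p = 2.42e-07).

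Tns1 (chr1:74007389-74134339) had 25 regions, of which 17 were tested. The mean was 57.2, 58.7, 59.7 and 54.5 in KO and 68.8, 70.03, 70.1 and 81.6 scaled tags in WT libraries, with WT 4 apart from the other WT libraries. The difference was -0.33 ± 0.091 (adjusted p = 0.02), 16 of 17 regions lay below 0 and 6 were called lower. Without KO 3 or WT 4 the adjusted p was 0.0537 or 0.0519, and with missing peaks filled 0.0526. The region 101 kb into the cluster had 74.7, 81.8, 76.7 and 84.3 in KO and 132, 137, 145 and 141 in WT libraries (-0.80 ± 0.11, adjusted p = 2.38e-07).

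Dapk1 (chr13:60594249-60724001) was the only one of the 10 largest clusters that the unweighted fit called. It had 26 regions with 17 tested and a mean of 101, 93.4, 92.6 and 90.5 in KO and 113, 113, 113 and 117 scaled tags in WT libraries. KO libraries were all lower (-0.27 ± 0.071, 0.828-fold, adjusted p = 0.0154), with 15 of 17 regions below 0 and 5 called lower. With missing peaks filled the adjusted p was 0.0751. The most changed region, 113 kb into the cluster, had 41.8, 34.4, 40.6 and 47.5 in KO and 89.9, 78.9, 97.0 and 105 in WT libraries (-1.17 ± 0.14, adjusted p = 3.43e-08).

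Calls of 3 other named clusters depended on single libraries. The cluster beside Kcnj15, a potassium channel gene, (chr16:95189068-95245740; 13 regions, 6 tested) had 45.3, 45.1, 37.3 and 41.9 in KO and 58.9, 56.0, 60.5 and 51.5 scaled tags in WT libraries. It was lower by -0.42 ± 0.11 (adjusted p = 0.0158), and without WT 3 the adjusted p was 0.0545. Lima1, which encodes an actin-binding protein and is on the list of AM identity genes, (chr15:99814578-99866809; 11 regions, 6 tested) had 58.1, 60.4, 54.8 and 48.5 in KO and 63.9, 68.2, 69.2 and 74.8 in WT libraries. All 6 regions lay below 0 (-0.32 ± 0.098, adjusted p = 0.0372), and leaving out 1 library took the call away for KO 1_2, KO 2, KO 3, WT 1_3, WT 3 and WT 4, with adjusted p up to 0.107. The Fam118b cluster (chr9:35254673-35338775; 15 regions, 13 tested) had 44.6, 47.03, 41.0 and 48.0 in KO and 55.6, 56.97, 58.9 and 55.7 in WT libraries. There 5 regions were called lower (-0.33 ± 0.1, adjusted p = 0.0333), and the call was lost without KO 1_2, KO 2, WT 1_2, WT 1_3 or WT 3, with adjusted p up to 0.0902, and with missing peaks filled (0.0813).

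Several other clusters called lower stood at genes with known macrophage roles and are named after their values were seen. How these calls held in the alternative settings was not followed for each of them. Of all 36 called clusters, 19 kept their call without WT 3, 19 under the replicate block and 15 with missing peaks filled. The cluster 1.81 kb from Plin2, which encodes the coat protein of lipid droplets, had 10 regions with 7 tested, and its mean was 86.3, 81.7, 66.0 and 67.4 in KO and 96.6, 90.5, 101 and 98.5 scaled tags in WT libraries. All 7 regions lay below 0 (-0.37 ± 0.096, adjusted p = 0.016), of which 2 were called lower. At Fgr, a Src family kinase gene of myeloid cells, the mean was 79.2, 69.4, 69.2 and 65.2 in KO and 80.4, 83.6, 85.8 and 97.6 in WT libraries (-0.30 ± 0.091, adjusted p = 0.037; 10 regions, 3 of 7 called lower). The cluster at Trib1, a pseudokinase that controls the breakdown of C/EBP factors, had 132, 121, 125 and 123 in KO and 147, 134, 156 and 165 in WT libraries (-0.26 ± 0.077, adjusted p = 0.03; 3 of 8 called lower).

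Among the clusters called higher, that beside Tpra1 (chr6:88957766-89009277; 10 regions, 5 tested) had the largest difference. Its mean was 48.8, 60.04, 54.3 and 52.4 in KO and 30.6, 33.0, 32.7 and 42.0 scaled tags in WT libraries. All 5 tested regions lay above 0 and 4 were called higher, and the cluster difference was 0.65 ± 0.13 (1.57-fold, adjusted p = 0.00276). Its strongest region, printed above with AP-1 and DR1 matches, had 86.6, 88.9, 86.9 and 93.8 in KO and 63.8, 67.7, 47.6 and 75.6 in WT libraries (0.50 ± 0.13, adjusted p = 0.00728). The region with the largest difference had 35.8, 39.4, 33.9 and 36.9 in KO and 12.6, 15.5, 21.9 and 22.6 in WT libraries (1.03 ± 0.2, adjusted p = 0.000211).

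Sh3bp5 encodes an exchange factor of the small GTPase Rab11 that also binds the kinase BTK. Its intronic cluster (chr14:31380320-31423612; 14 regions, 11 tested) had a mean of 111, 102, 98.7 and 101 in KO and 72.1, 78.5, 77.9 and 70.5 scaled tags in WT libraries. All 11 tested regions lay above 0, and 8 were called higher, the highest count among the clusters (0.46 ± 0.078, 1.38-fold, adjusted p = 0.000835). The region 5.95 kb from the cluster's start had 102, 94.97, 111 and 99.7 in KO and 53.2, 60.2, 61.3 and 63.2 in WT libraries (0.77 ± 0.12, adjusted p = 9.11e-06).

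The cluster at Pgs1, an enzyme of cardiolipin synthesis, also covers Socs3, an inhibitor of cytokine signalling through STAT3 (chr11:117930870-117993849; 16 regions, 10 tested). Its mean was 88.2, 91.2, 86.9 and 86.5 in KO and 64.7, 60.6, 61.2 and 70.9 scaled tags in WT libraries. Of 10 tested regions 9 lay above 0 and 5 were called higher (0.46 ± 0.083, 1.37-fold, adjusted p = 0.00141). The region 32.7 kb into the cluster had 178, 149, 158 and 158 in KO and 85.1, 78.1, 85.1 and 83.5 in WT libraries, a difference of 0.95 ± 0.1 (adjusted p = 2.33e-09). The printed region with the PU.1 match had 51.8, 63.7, 49.7 and 42.8 in KO and 26.1, 26.7, 33.8 and 13.6 in WT libraries (1.09 ± 0.2, adjusted p = 8.65e-05).

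Dusp22, a dual-specificity phosphatase gene, lies beside a cluster of 10 regions with 5 tested (chr13:30603845-30649600), with a mean of 46.6, 52.0, 41.9 and 44.7 in KO and 33.9, 28.8, 34.7 and 31.8 scaled tags in WT libraries (0.52 ± 0.13, adjusted p = 0.00997). All 5 lay above 0, and each of the 3 regions called higher holds an AP-1 match. Its strongest region had 125, 138, 125 and 127 in KO and 131, 124, 143 and 116 in WT libraries, which overlapped (0.01 ± 0.1, adjusted p = 0.96). At Mreg, a gene of organelle transport, the cluster (chr1:72183075-72231001; 10 regions, 5 tested) had 94.9, 94.2, 83.8 and 83.7 in KO and 64.7, 71.4, 64.6 and 73.8 in WT libraries (0.38 ± 0.086, adjusted p = 0.00726). The Nup160 cluster (chr2:90612180-90679728; 12 regions, 6 tested), at a gene of the nuclear pore, had 57.6, 65.05, 60.6 and 60.9 in KO and 38.9, 52.4, 44.4 and 54.0 in WT libraries. Its difference of 0.38 ± 0.12 (adjusted p = 0.0382) lost the call under total scaling (adjusted p = 0.0622), with missing peaks filled (0.198) and on leaving out any KO library, WT 1_2 or WT 3 (adjusted p from 0.0543 to 0.112). Rarb, which encodes a retinoic acid receptor that pairs with RXRs, was named after its values were seen. Its cluster of 12 regions with 8 tested had 93.6, 95.5, 91.6 and 86.9 in KO and 82.8, 77.1, 70.6 and 60.1 in WT libraries. All 8 lay above 0 and 3 were called higher (0.35 ± 0.097, adjusted p = 0.023). How the Rarb call held in the alternative settings was not followed.

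**Figure D4:**
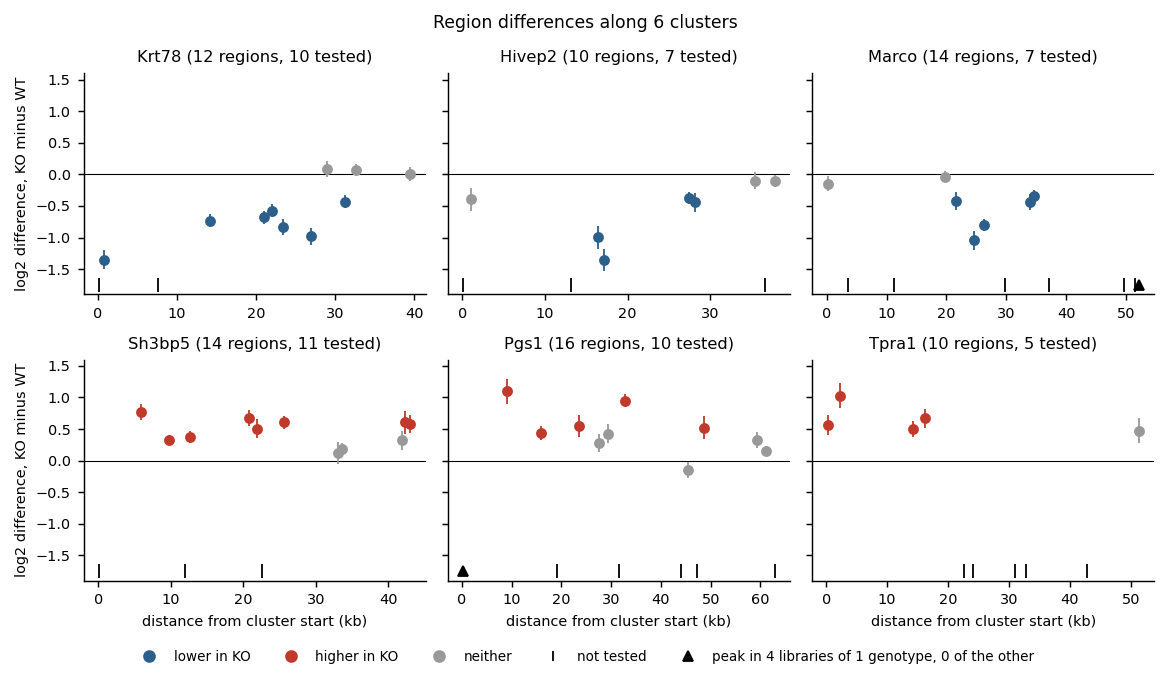
For 6 clusters the log2 difference of each tested region (vertical axis, KO minus WT, with SE) is plotted by its distance from the start of the cluster (horizontal axis, kb). At Krt78 7 of 10 regions are called lower and 3 lie above 0, whereas at Sh3bp5 all 11 lie above 0.

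The calls of single regions were then counted within clusters. No region was called in 167 clusters, 1 in 172 and 2 or more in 169. Of the last, 87 had calls to the lower side alone, 38 to the higher side alone and 44 had both. With 3 or more called regions the numbers were 38, 11 and 21 of 70. More tested regions were called than not in 8 clusters, at most 80% of them. Both signs occurred among the tested regions of 93.1% of clusters, while all lay below 0 in 13 and all above 0 in 22. With small differences and their SE, both signs can also arise from noise, and how often was not tested. The mean of the cluster took up 19.3% of the variance of the members' log2 differences. Means of independent regions would take up part of this too, and how large a part was not tested. Of the 389 lower members 91 lay in clusters called lower, and of the 238 higher members 32 in clusters called higher.

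The differences of neighbouring regions were weakly correlated. Across 4358 pairs of members next to each other in a cluster, Pearson's r of the log2 differences was 0.292, a description across pairs that share libraries and local base composition. The same pairs had an r of 0.116 for their residuals within genotypes, and the signs matched in 59.4%. With the regions 2, 3 and 5 places apart, r was 0.211, 0.168 and 0.142. For gaps up to 1 kb it was 0.362, between 1 and 3 kb 0.379, between 3 and 6 kb 0.274 and above 6 kb 0.242. In chains of 2 to 9 regions r was 0.404 over 11533 pairs, and between the ends of neighbouring chains up to 50 kb apart 0.257 over 8260 pairs; neighbours outside clusters were thus correlated too. Where both neighbours were called (114 pairs), 106 pairs (93.0%) went in the same direction. This share was 96.7% of 423 pairs in chains of 2 to 9 regions and 88.9% of 226 pairs at the ends of neighbouring chains. Within clusters it was 90.2% at 2 places apart, 77.2% at 3 and 74.4% at 5.

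**Figure D5:**
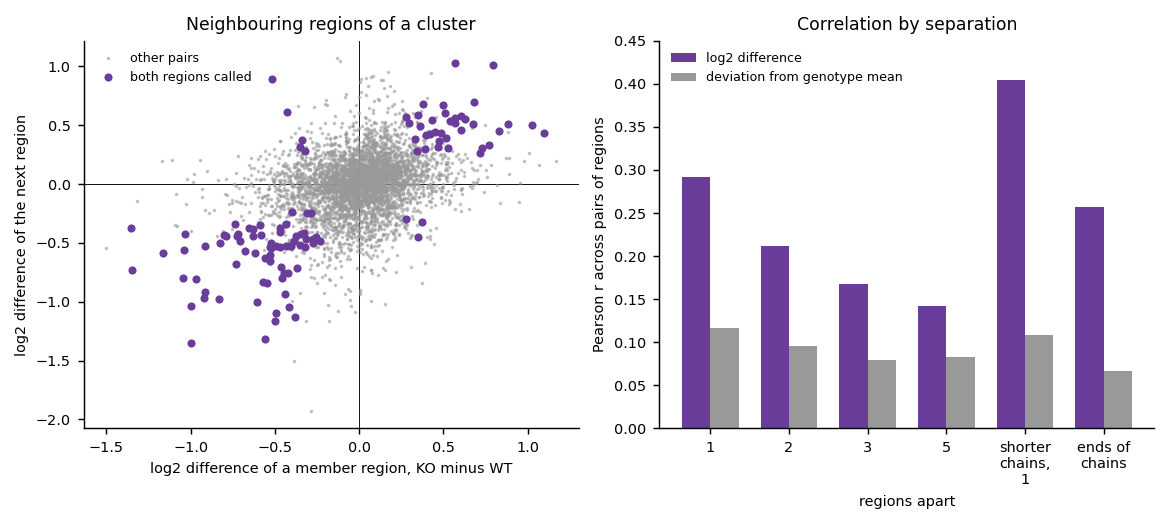
The scatter shows the log2 difference (KO minus WT) of each member region against that of the next tested region in its cluster, and the second panel gives Pearson's r by how many places apart the regions lie. The value r falls from 0.292 for direct neighbours to 0.142 at 5 places.

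The 10 largest clusters held 26 to 47 regions each, and most of their tested regions were called neither lower nor higher. Such regions may still differ by less than the fit detects. The longest (chr8:126720577-126936313) had 47 regions and 40 tested, and is named for Tomm20, the gene of an import receptor of mitochondria, although just 1 of its summits lies in that gene. Its strongest region had 392.2, 348, 402 and 348 scaled tags in KO and 308, 317, 315 and 356 in WT libraries (0.20 ± 0.078, adjusted p = 0.0832), and with 3 regions called lower and 4 higher the cluster difference was 0.04 ± 0.075 (adjusted p = 0.766). The second, at Tmem189, also covers Cebpb, the gene of the macrophage factor C/EBPβ (chr2:167621156-167775788; 37 regions, 29 tested). One of its regions, 123 kb into the cluster, had 120.5, 123, 107 and 73.6 tags in KO and 183, 191, 210.5 and 279.6 in WT libraries (-1.03 ± 0.12, adjusted p = 1.53e-08). Its strongest region had 516, 469.8, 558 and 531 in KO and 497, 429, 455 and 560.3 in WT libraries, with overlap (0.10 ± 0.078, adjusted p = 0.436). The Cebpb cluster as a whole differed by -0.11 ± 0.085 (adjusted p = 0.411; weighted 0.0613), with 3 regions called lower and 1 higher.

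Of the other 8 largest clusters, those at Gm20388 with the chromatin regulator Ankrd11 (37 regions), Ubash3b, a phosphatase that dampens immune receptor signals (31 regions), and Pdcd1lg2, the gene of the checkpoint ligand PD-L2 (30 regions), had 1, 1 and 0 called regions and differences of -0.03, -0.06 and 0.02. A cluster that covers Plet1, an AM surface protein, with Bco2 and Pts (chr9:50438127-50553924; 28 regions, 19 tested) had 1 lower and 4 higher regions. Its difference was 0.12 ± 0.075 (adjusted p = 0.328; weighted 0.00829). The cluster of the chemokine genes Ccl6 and Ccl9 (chr11:83533126-83641146; 27 regions) differed by 0.11 ± 0.08 (adjusted p = 0.378; weighted 0.037), that in Tcf7l2, a transcription factor of Wnt signalling (27 regions), by -0.15 ± 0.088 (adjusted p = 0.27; weighted 0.0214), and that at Rin3 and Lgmn, the gene of a lysosomal protease (26 regions), by -0.12 ± 0.073 (adjusted p = 0.293; weighted 0.00674). The weighted fit called these 4 and the unweighted one did not.

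Genes of lists chosen for the tissue, with earlier results of these data known, were looked up in the clusters. The shares below are thus a description without a test. The AM identity list holds genes, Lima1 and Krt79 among them, whose RNA the paper reports as lower in mature KO AMs. Of 30 AM identity genes, 5 lay in clusters (Marco, Mrc1, Plet1, Cd9 and Lima1); of 65 tested regions there 10 were lower (15.4%) and 5 higher (7.69%), 2 of 5 clusters were called lower, and the median cluster difference was -0.13. Over all regions tested the shares were 7.03% and 5.81%, and 5 of the 10 lower regions lay in the Marco cluster alone. Krt79, of the same list, lies outside the Krt78 cluster and is not counted. Mrc1, the mannose receptor, had 1 lower region of 14 tested and a cluster difference of -0.13, and Cd9, a tetraspanin, 1 lower and 1 higher of 19 with -0.04. Of 36 macrophage transcription factors, 8 lay in 9 clusters with 121 tested regions, of which 7 were lower (5.79%) and 6 higher (4.96%), 0 clusters were called and the median was 0.05. Receptors of niche signals had 4 of 19 genes in clusters with 2 lower and 3 higher of 48 tested regions. Lipid handling had 3 of 20 (Abca1, Abcg1 and Dgat2) with 1 lower and 1 higher of 35, and genes of immature cells and monocytes 1 of 14 (Csf1r) with 1 lower and 2 higher of 6. In these 3 lists 0 clusters were called by the unweighted fit, and the weighted one called 1, in the lipid list. Plin2, also a lipid handling gene, is not counted because it lies 1.81 kb outside its cluster, which was called lower (-0.37, adjusted p = 0.016). Over all 508 clusters the median difference was 0.000874 and 7.09% were called.

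At 4 transcription factor genes the clusters were called by the weighted fit alone, whose p-values may be too small for long chains. The Fos cluster, at the gene of an AP-1 subunit (chr12:85417827-85498279; 19 regions, 14 tested), had 4 higher and 1 lower region, and its strongly tagged region 54.4 kb into the cluster had 345, 319, 317 and 339 scaled tags in KO and 245, 224, 264 and 263 in WT libraries (0.41 ± 0.08, adjusted p = 0.00024). The Fos cluster difference was 0.22 ± 0.083 (adjusted p = 0.0838; weighted 0.000376). The cluster of Batf, another AP-1 family gene, and Flvcr2 (chr12:85687898-85782246; 19 regions, 13 tested) had all 13 regions below 0 and 3 called lower (-0.20 ± 0.08, adjusted p = 0.0967; weighted 0.000735). Bhlhe40 and Bhlhe41 encode related repressors linked to AM self-renewal. A cluster 20.7 kb from Bhlhe40 (chr6:108687583-108756342; 17 regions, 13 tested) had 4 higher and 0 lower regions (0.20 ± 0.076, adjusted p = 0.0897; weighted 0.000363). The Bhlhe41 cluster (chr6:145822210-145920232; 20 regions, 16 tested) had 2 higher and 1 lower (0.17 ± 0.099, adjusted p = 0.262; weighted 0.0022), and the higher region at its start had 55.7, 41.4, 59.8 and 57.02 in KO and 33.8, 21.5, 15.5 and 26.0 in WT libraries (1.17 ± 0.19, adjusted p = 1.57e-05). At Rxra itself the cluster (chr2:27662751-27728380; 15 regions, 11 tested) had 1 higher region and a difference of 0.06 (adjusted p = 0.704).

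Motif matches were also counted by the direction of the call. The DR1 letters were present in 55 of 389 lower members (14.1%), 10 of 238 higher members (4.2%) and 222 of 4239 members called neither way (5.24%). For AP-1 the shares were 13.6% of lower, 29.4% of higher and 16.2% of the other members, and for PU.1 7.46%, 8.4% and 12.7%. Among distal regions outside clusters, DR1 was present in 241 of 2404 lower regions, 2.52% of higher ones and 4.39% of those called neither way, AP-1 in 15.7%, 22.7% and 14.5%, and PU.1 in 13.4%, 10.6% and 14.1%. The order of the 3 classes was the same in and outside clusters for DR1, whereas for AP-1 and PU.1 it was not. These shares are a description of letters near summits, with no test, and the regions of 1 cluster are not independent.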

How the data were processed

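ATAC-seq peak lists of 8 libraries (4 KO, 4 WT) were used. According to the study's methods and the submitters' processing notes, the authors used Cutadapt for trimming, Bowtie2 for alignment to mm10 and MACS3 for peaks, called in each library separately after duplicates were taken out (q under 0.05, tags extended to 200 bases around the cut site). Replicates were not pooled. The deposited lists give, per peak, a score, the fold over background at the summit, its −log10 p and its −log10 q. Peaks are listed only above the caller's threshold, so an absent peak is no count of 0, and the depth of the libraries in reads is not given in the lists.

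The fold and the −log10 p of each deposited peak were solved for the whole number of tags at the summit, which was recovered for 100% of peaks in every library (relative tolerance 1e-05). Log2(tags + 0.5) was brought to a common median over libraries and tested with limma (3.58.1, R 4.3.3, trend, Benjamini-Hochberg over 47499 regions or 15279 chains, threshold 0.05); "scaled tags" are these values back on the tag scale. Fold changes are thus of tags plus 0.5. Per-library measures were tested by exact permutation over 70 labelings (Python 3.11.15, scipy 1.17.1). Promoters and genes came from GENCODE M21 and sequences from the mm10 genome. The fits were tested on simulated tags. The region fit recovered 22% of 1.5-fold and 73% of 2-fold changes. For long chains the unweighted fit recovered 0% of 1.2-fold and 80% of 1.5-fold changes, the weighted one 62.5% and 100%. The simulated tags shared no noise within a chain, unlike the residuals of the data. For each fold 40 of 15279 chains were changed, all upward and evenly over their regions, so recovery in the data may differ. A region or cluster without a call may thus still differ. Members, gene lists and rules were chosen with earlier results of these data known. Clusters named are the 10 largest, the 6 called with the largest difference and the 5 with most called regions in each direction, and those of listed genes with 3 called regions in 1 direction, a call or a place among the 2 longest of a list; a cluster takes the name of the coding gene over most of its summits, or else of the nearest one, and up to 3 called regions each are given. Same-numbered KO and WT libraries had residual correlations of 0.0555, 0.116 and 0.0368, so the numbers were not taken as pairs. Alternatives covered scaling, thresholds, the chaining rule, GC content, missing peaks, the replicate number and leaving out each library.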

Additional observations from a re-analysis of the deposited data

Results flagged for a closer look

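In 7 of 80 groups of 4 libraries, a single library stood apart from the other 3 by Dixon's criterion, which chance meets in about 1 group in 20. The share of member regions with a peak was 88.7% in KO 1_3, above the other KO libraries. The cluster mean was low in KO 3 at Pdcd1lg2 (65.3 scaled tags) and in KO 1_2 at the Nav2 cluster of 11 regions (36.01). It was high in KO 2 at Bhlhe41 (53.2) and in WT 4 at Dapk1 (117), Tns1 (81.6) and Abcg1 (85.1). At Dapk1 and Tns1 the WT 4 value lies on the side of the called difference; without WT 4 the Tns1 cluster had an adjusted p of 0.0519.

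Outside the clusters, the Xist promoter had a peak in 4 of 4 KO libraries and in 0 of 4 WT libraries, where no tags are listed. The Itgax promoter had 379 tags or more in every KO library and at most 239 in the WT libraries. The part of either difference in the cluster results was not tested.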

How the results depend on the processing

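The rule set the numbers most. With gaps up to 6 kb there were 613 member regions in 54 clusters, with 25 kb 19648 in 1189, with 15 or more regions 2916 in 157, with 8 or more 883 clusters, and with summits over 2.5 kb from a TSS 4300 in 322. Regions called lower or higher were then 57, 1636, 271 and 391 for 6 kb, 25 kb, 15 regions and 2.5 kb, and clusters called were 2, 108, 10 and 22, and 71 with 8 regions. Weighting by length, added after the data were seen, gave 155 called clusters in place of 36, and leaving out 1 library gave 19 to 29. With the replicate number as a block 19 clusters were called and with GC content added 21, while missing peaks filled gave 27; the block gave 683 called members in place of 627. The splits were 11 lower and 8 higher clusters under the block and 10 and 11 with GC content added. For members they were 363 lower and 320 higher under the block and 332 and 332 with GC content added. The excess of lower calls was thus smaller under the block and not seen with GC content added. Leaving out WT 4 alone, with no block, gave 348 lower and 279 higher members. The parts of the block and of the libraries left out cannot be told apart. Dapk1, Tns1, Fam118b and Lima1 lost their call under the block, and Kcnj15 also with GC content. Every library of a shared number had its highest residual correlation with its own number, a hint from the data and not from the design. The difference in the share of tags in members was 0.124 under the block and between -0.135 and 0.113 in the leave-outs, around 0.

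Clusters near 0 turned sign: Pdcd1lg2 to -0.0183 under total scaling (leave-outs -0.000125 to 0.0345), Tnfrsf1b to -0.0208 under total and -0.0109 under quantile scaling, with missing peaks filled to -0.147 and with replicates 1_2 and 1_3 averaged to -0.00434 (leave-outs -0.00953 to 0.0405), Csf1r to -0.0266 under total and -0.00548 under quantile scaling, -0.156 when filled, -0.0222 under the block and -0.0343 with GC content added (leave-outs -0.0197 to 0.0515), Cd9 to 0.0113 under the block, 0.0252 with GC content added and 0.0877 when filled (leave-outs -0.0822 to 0.0053), and Gm20388 to 0.025 under the block with GC content. The cause was not tested. Of the 84 named regions, 48 kept their call in every setting run on them, 26 lost it in at least 1 leave-out and the others under another setting. Of the 17 named clusters called, 10 kept the call with missing peaks filled, 13 under the block and 15 with replicates 1_2 and 1_3 averaged. The neighbour correlation stayed between 0.271 and 0.304. The median of 57 to 91 tags at a summit bounds the precision of single regions; the part of depth in the calls was not tested.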
